A study of Sus scrofa with 8 samples.

Results

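Porcine oviductal epithelial cells after 15 days of primary culture were compared with the same kind of culture after 24h. The comparison used every array labelled with either time, which is 4 of the 8 arrays of the series, 2 per group. The oviductal epithelium came from landrace crossbred gilts, young sows, of about 9 months of age that had shown regular oestrous cycles (n = 45), and the cells were pooled. Both groups were made by scraping, collagenase and trypsin digestion, and both were cultured in DMEM with 10% fetal bovine serum, penicillin, streptomycin and amphotericin B. They differed by label only in time. The other 4 arrays were of 7 and 30 days and add to the estimate of spread in the fit and are otherwise cited only to place a gene in the course. Replicates 1 and 2 of a time are labelled as biological, without word of separate pools or dishes. The p-values therefore rest on the spread between these samples alone, and that spread may be technical. Scraped and digested epithelium can hold cells of the underlying stroma, vessels and blood, and fresh tissue or sorted cells were not analysed here.

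The oviduct is lined by ciliated cells, whose beating cilia move gametes and embryos, and by secretory cells, which release oviductal glycoprotein and other luminal proteins. Both are polarised simple epithelial cells held together by tight junctions, adherens junctions and desmosomes. Flat culture on plastic in serum is known as a setting in which such cells can flatten, divide and lose cilia and secretion, and in which stromal cells, where present, can grow. Values are log2 expression on the arrays, so a difference of 1 is a 2-fold change, and they allow a gene to be compared between arrays but not with another gene.

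The labelled cell type was checked on the arrays. EPCAM, an epithelial adhesion molecule, read 11.22 and 11.24 in replicates 1 and 2 at 24h and 7.69 and 8.0 at 15 days. KRT8, a keratin of simple epithelia, read 10.89 and 11.22 at 24h and 11.77 and 11.93 at 15 days. OVGP1, the oviductal glycoprotein of secretory cells, read 10.46 and 11.78 at 24h and 3.31 and 3.51 at 15 days. The 24h arrays therefore carried both the epithelial markers and the oviductal one, while the 15-day arrays kept KRT8 and had EPCAM and OVGP1 far below their 24h values. In arrays of mixed cells, fewer cells of a type and less RNA per cell cannot be told apart, and this holds for every result that follows.

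Of 10901 genes tested, 4080 were called, that is, they passed a Benjamini-Hochberg adjusted p of 0.05 in a limma fit. This is 37.4% of genes, with 2103 (19.3%) higher and 1977 (18.1%) lower at 15 days, and these are the shares against which the gene groups are read. With a 2-fold difference required as well, 1396 genes remained called (12.8%), 871 of them higher (7.99%) and 525 lower (4.82%). The range of the 2 arrays at 15 days did not overlap that at 24h for 7369 genes (67.6%), against the 37.4% called, and every called gene was among them. The median change over all genes was -0.039, and the median SE of a change was 0.13. For 5522 of the 6821 genes not called, the 95% interval of the change lay within 1.5-fold in either direction, while for 1299 it reached beyond. The 2 arrays of a time correlated at 0.9898 at 24h and 0.9953 at 15 days over all probe sets, and arrays of different times at 0.9429 to 0.9461.

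**Figure D1:**
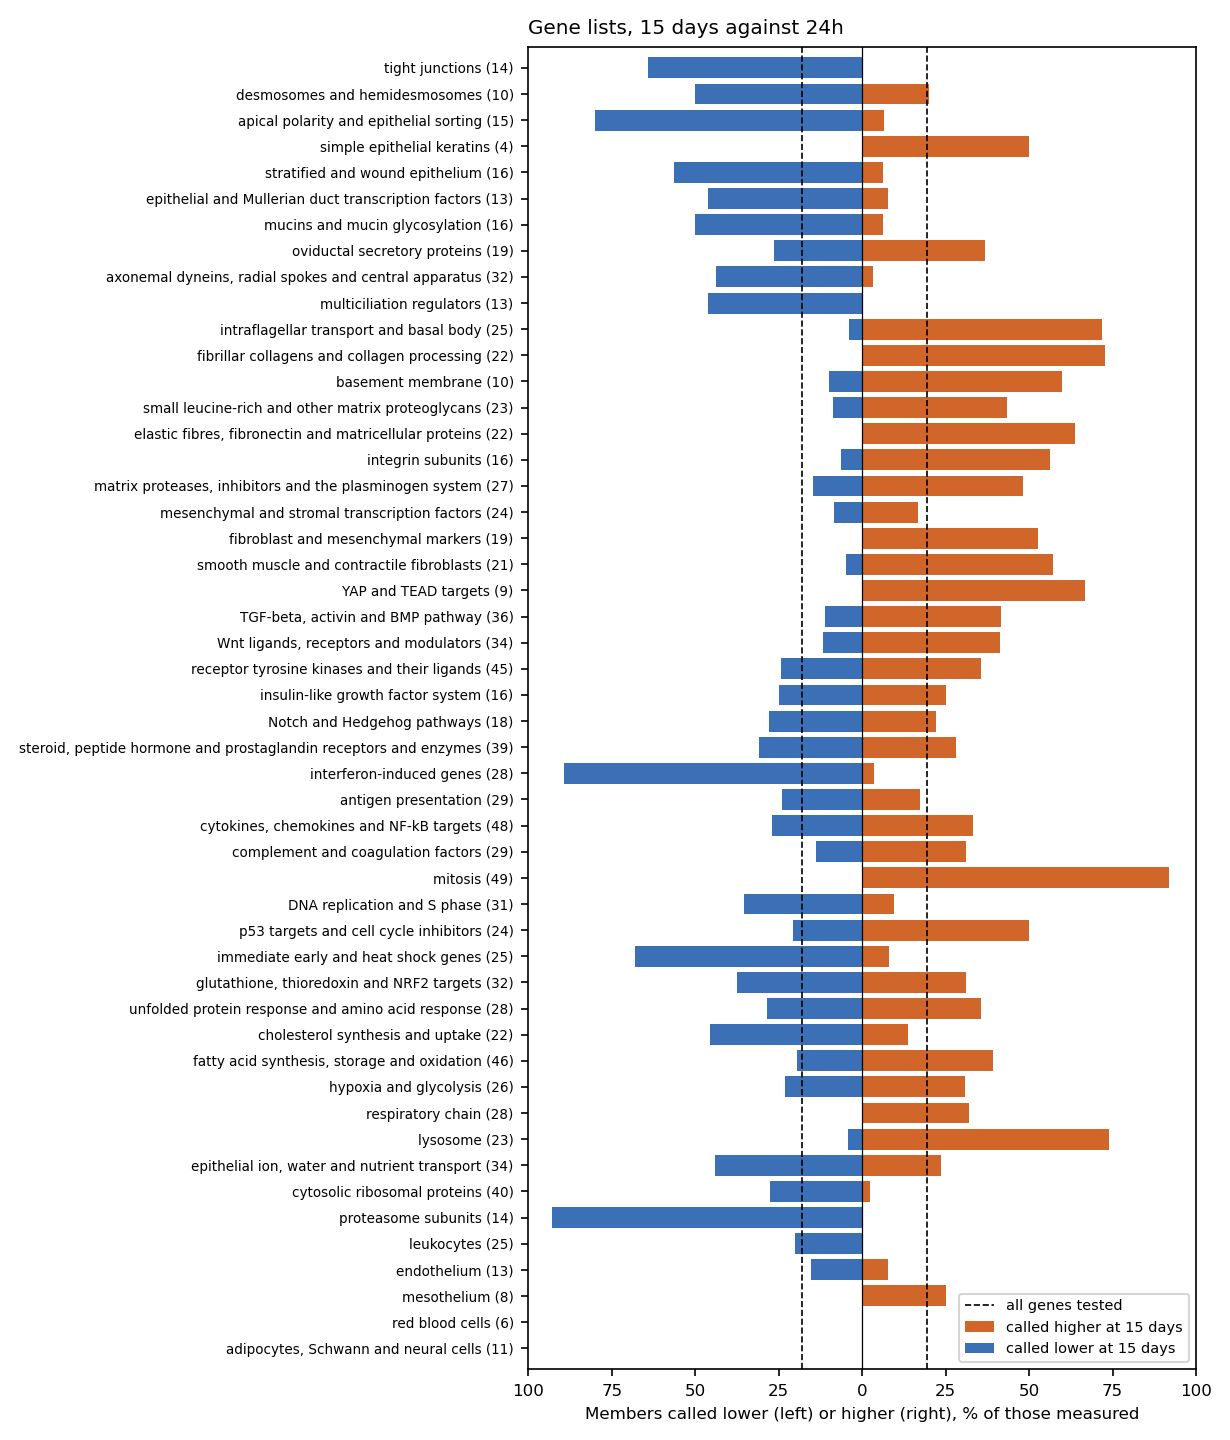
Share of the measured genes of each of the 50 gene lists, in percent, that were higher (right) or lower (left) at 15 days than at 24h at an adjusted p under 0.05, with the number measured beside each name and dashed lines at the shares over all genes, 19.3% and 18.1%. Mitosis had 45 of 49 members higher, and the interferon response had 25 of 28 lower.

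The 25 largest increases ran from 6.14 (CHRDL1, a secreted BMP antagonist) to 4.0 (FN1, fibronectin) on the log2 scale. Beside collagens and other matrix genes they held receptors and enzymes. PRLR, the prolactin receptor, read 3.71 and 3.98 at 24h and 8.38 and 8.35 at 15 days, a rise of 4.52 ± 0.13 (SE, adjusted p = 2.0e-08). NOX4, an NADPH oxidase that makes hydrogen peroxide, read 3.73 and 3.85 and then 8.24 and 8.14, a rise of 4.4 ± 0.12 (adjusted p = 2.0e-08). BDKRB1, the inducible bradykinin receptor, read 5.13 and 5.15 and then 9.32 and 9.24, a rise of 4.14 ± 0.13 (adjusted p = 3.2e-08). In all of these both 15-day arrays lay above both 24h arrays, as they did for every gene called higher. The genes were picked for large changes, so the wide gap between times follows from that choice. MYOZ2, a muscle protein that binds calcineurin, rose by 4.10 ± 0.19. P14ARF, the annotation's symbol for the ARF product of the CDKN2A locus, which stabilises p53, read 4.28 and 3.85 at 24h and 8.21 and 7.97 at 15 days. Its rise was 4.03 ± 0.17 (adjusted p = 1.7e-07). SERPINA3-2, a serine protease inhibitor of the antichymotrypsin group, rose by 4.37 ± 0.17, but it belongs to a family of close copies whose probes may not be specific.

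The 25 largest decreases ran from 7.71 (OVGP1) to 3.38 (RSAD2, an antiviral enzyme), and genes of epithelial surfaces and secretion were among them. SFTA2, a secreted surfactant-associated protein, read 7.58 and 8.02 at 24h and 3.63 and 3.69 at 15 days, a change of -4.14 ± 0.17 (adjusted p = 1.6e-07). IL24, a cytokine of the IL-10 family, read 6.96 and 7.02 and then 3.06 and 2.90, a change of -4.01 ± 0.16 (adjusted p = 1.3e-07). CRABP2, which carries retinoic acid to its nuclear receptor, read 8.68 and 9.29 and then 5.54 and 5.29, a change of -3.56 ± 0.19 (adjusted p = 6.3e-07). Each was lower in both 15-day arrays than in either 24h array, as was every gene called lower. KCNK9, a potassium leak channel, fell by 3.52 ± 0.29, with 24h arrays at 6.14 and 7.10. HSH2D, an adaptor of immune signalling, fell by 3.58 ± 0.16.

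**Figure D2:**
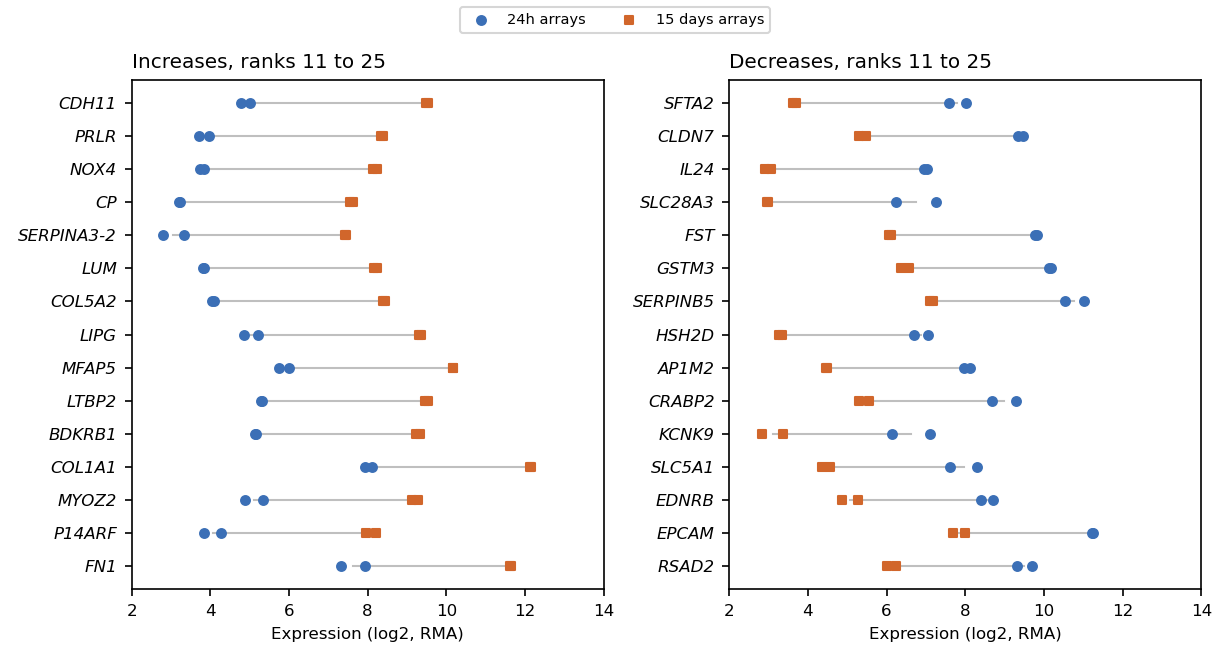
Log2 expression in each 24h and each 15-day array for the increases ranked 11 to 25 by size (left) and the decreases ranked 11 to 25 (right), with grey lines joining the means. The genes were picked for large called changes, and no called gene has ranges that overlap between the 2 times. SLC28A3 has the widest gap between its 24h arrays, at 6.23 and 7.26.

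Many epithelial junction and polarity genes were lower at 15 days. Of 14 tight junction genes 9 fell and 0 rose, with a median change of -0.86.  The median was -1.04 without replicate 1 of 24h. CLDN7, a claudin of the lateral membrane, read 9.48 and 9.35 at 24h and 5.29 and 5.48 at 15 days, a change of -4.02 ± 0.19 (adjusted p = 3.6e-07). CLDN10, which forms paracellular ion pores, fell by 2.64 ± 0.18, CLDN4 by 1.93 ± 0.10 and MARVELD3, a tight junction protein related to occludin, by 2.20 ± 0.13. F11R, the junctional adhesion molecule A, was not called at -0.04 ± 0.11. CLDN4 and CLDN7 lay between the 24h and 15-day values at 7 days, at 10.90 and 7.87, whereas CLDN10 was already at 3.37. Of 15 genes of polarity and epithelial trafficking 12 fell and 1 rose, with a median of -1.32, or -1.18 over every probe set. AP1M2, a subunit of the epithelial adaptor that sorts proteins to the basolateral membrane, read 7.97 and 8.13 and then 4.48 and 4.46, a change of -3.58 ± 0.18 (adjusted p = 4.3e-07). ERBB3, a neuregulin receptor, fell by 3.01 ± 0.13, PRSS8, a membrane-anchored serine protease that activates the epithelial sodium channel, by 2.95 ± 0.23 and RAB25, a GTPase of apical recycling, by 2.69 ± 0.15.

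Transcription factors of epithelium were called unequally. Of 13 epithelial transcription factors 6 fell and 1 rose, with a median of -0.25, or -0.10 over every probe set. GRHL2, a grainyhead factor that controls junction genes, read 7.58 and 7.48 at 24h and 4.18 and 4.47 at 15 days, a change of -3.21 ± 0.14 (adjusted p = 1.7e-07). Its relative GRHL3 fell by 2.65 ± 0.17, FOXA1 by 1.75 ± 0.19 and OVOL1, a repressor of mesenchymal genes, by 1.30 ± 0.15. EHF, an epithelial ETS factor, was not called, at 10.70 and 10.67 and then 10.45 and 10.41. Desmosome and hemidesmosome genes were divided, with 5 of 10 lower and 2 higher (median -0.37), although leaving out replicate 2 of 24h or replicate 1 of 15 days left 3 lower. PPL (periplakin) fell by 1.5 ± 0.20, DSP (desmoplakin) by 0.86 ± 0.13 and COL17A1, a hemidesmosome collagen, by 0.84 ± 0.11. PKP2, a plakophilin, rose by 1.29 ± 0.11 and DST, dystonin, by 0.70 ± 0.11. JUP fell by 0.48 ± 0.12 and DSC2 by 0.33 ± 0.11. DSC2 lost its call on leaving out any of the 4 arrays (-0.28 to -0.39) and JUP without either 15-day array or replicate 2 of 24h (-0.35 to -0.61). The others, ITGA6 (0.18 ± 0.12), ITGB4 (-0.26 ± 0.15) and EVPL (-0.41 ± 0.17), were not called.

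Keratins of simple epithelium did not fall. Of 4 measured, 2 rose and 0 fell, with a median of 0.30. KRT8 rose by 0.79 ± 0.14 (adjusted p = 0.00163), with the array values given above. KRT19 read 11.45 and 11.42 at 24h and 11.90 and 11.94 at 15 days, a rise of 0.48 ± 0.15 (adjusted p = 0.0291), but its call was lost on leaving out any of the 4 arrays, at changes of 0.46 to 0.50. KRT18 (0.12 ± 0.17) and the intestinal KRT20 (0.09 ± 0.14) were not called. The squamous and basal list had 9 of 16 lower and 1 higher, with a median of -0.85. Its largest decreases were SERPINB2, the plasminogen activator inhibitor 2, at -6.30, SERPINB5 (maspin) at -3.63, S100A14 at -3.02 and SFN, a 14-3-3 protein of keratinocytes, at -1.54.

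Secretory products changed in both directions. Of 16 genes for mucins and their glycosylation 8 fell and 1 rose, with a median of -0.57. MUC4, a membrane mucin, read 10.92 and 11.26 at 24h and 8.14 and 8.30 at 15 days, a change of -2.87 ± 0.16 (adjusted p = 8.0e-07), and it went on to 3.64 at 30 days. GCNT3, a mucin-type core branching enzyme, fell by 5.10 ± 0.14 and AGR2, a disulphide isomerase needed for mucin folding, by 2.36 ± 0.11. Those 2 were at 2.90 and 3.07 by 7 days, whereas MUC1 was at 8.2 at 7 days and at 5.30 and 5.52 in the 15-day arrays. Of 19 genes of a further oviductal list 5 fell and 7 rose (median -0.15). Not all of its members are secreted, as it also held HSPA5, UCHL1 and the steroid receptors PGR, ESR1 and ESR2. Among these PGR fell by 0.98 ± 0.15 and UCHL1 rose by 1.19 ± 0.14. OVGP1 fell by 7.71 ± 0.34 (adjusted p = 2.0e-07), its 24h arrays being 1.32 apart. CP, the copper ferroxidase ceruloplasmin, read 3.22 and 3.20 at 24h and 7.56 and 7.62 at 15 days, a rise of 4.38 ± 0.17 (adjusted p = 1.0e-07). C3, the central complement protein, read 7.78 and 7.46 and then 10.60 and 10.76, a rise of 3.06 ± 0.16 (adjusted p = 6.9e-07). SLPI, a secreted inhibitor of leukocyte proteases, rose by 1.80 ± 0.20. CP was still at 3.92 at 7 days, and its change from 7 to 15 days was 3.68 (adjusted p = 4.9e-06).

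Genes of epithelial ion, water and nutrient transport had 15 of 34 members lower and 8 higher, with a median of -0.22. SLC5A1, the sodium-glucose cotransporter, read 7.60 and 8.31 at 24h and 4.56 and 4.36 at 15 days, a change of -3.49 ± 0.21 (adjusted p = 1.2e-06). AQP9, an aquaglyceroporin, read 10.21 and 9.97 and then 7.24 and 7.13, a change of -2.91 ± 0.19 (adjusted p = 2.3e-06), and was at 3.98 at 30 days. SLC28A3, a nucleoside transporter, fell by 3.78 ± 0.28 and SLC44A4, a choline and thiamine pyrophosphate transporter, by 2.68 ± 0.11. SLC28A3 had 24h arrays at 6.23 and 7.26, both above the 15-day pair at 2.98 and 2.96.

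Genes of cilia fell into groups that moved in different directions. Of 32 genes for the dynein arms, radial spokes and central pair of the motile axoneme 14 fell and 1 rose, with a median of -0.30, and 9 fell without replicate 1 of 15 days. ARMC4, a dynein docking factor, read 5.51 and 5.74 at 24h and 3.38 and 3.67 at 15 days, a change of -2.10 ± 0.15 (adjusted p = 5.3e-06). SPAG6, of the central pair, read 4.99 and 5.40 and then 3.18 and 3.25, a change of -1.98 ± 0.15 (adjusted p = 6.8e-06). DNAH7, an inner arm heavy chain, fell by 1.91 ± 0.25 and LRRC6, an assembly factor, by 1.5 ± 0.18, while another probe set of DNAH7 gave -0.30 and was not called. In each of these replicate 2 of 24h was the highest of the 4 arrays. Of 13 genes of the multiciliation programme 6 fell and 0 rose (median -0.36), with 3 falling without either 15-day array or without replicate 2 of 24h. E2F4 and E2F5, which work with multicilin, fell by 1.21 ± 0.11 and 0.72 ± 0.11. MYB fell by 1.41 ± 0.16 and DEUP1, a deuterosome scaffold, by 1.42 ± 0.43, the latter with 24h arrays at 4.19 and 5.77 and a call that was kept only without replicate 1 of 24h (-0.63 to -2.21). Another probe set of DEUP1 gave -0.17 and was not called. RFX3 was not called at 0.04 ± 0.18. The members that follow were chosen after their values were seen. TRRAP fell by 0.37 ± 0.11 and CDC20B by 0.36 ± 0.11, the latter dim at means of 3.21 and then 2.85. FOXJ1 (-0.75 ± 0.30), TP73 (-0.34 ± 0.15), FOXN4 (-0.30 ± 0.13), GMNC (-0.17 ± 0.12) and CCNO (-0.05 ± 0.12) were not called. All of these uncalled genes but FOXJ1 were dim, with 24h means of 3.11 to 3.84.

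Intraflagellar transport and basal body genes, which build primary as well as motile cilia, rose in 18 of 25 cases and fell in 1, with a median of 0.78. TCTN1, a transition zone protein, read 6.02 and 5.96 at 24h and 8.12 and 8.24 at 15 days, a rise of 2.19 ± 0.11 (adjusted p = 4.7e-07). DYNC2LI1, of the retrograde cilia dynein, read 5.47 and 5.44 and then 7.45 and 7.37, a rise of 1.95 ± 0.16 (adjusted p = 1.1e-05). IFT80 rose by 1.61 ± 0.19 and KIFAP3, of the anterograde kinesin, by 1.47 ± 0.14, whereas KIF3A of the same motor was not called at -0.05 ± 0.14. Of the 25 genes 11 were also higher at 15 than at 7 days, where 6.58% of all genes were higher, and 0 were lower.

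**Figure D3:**
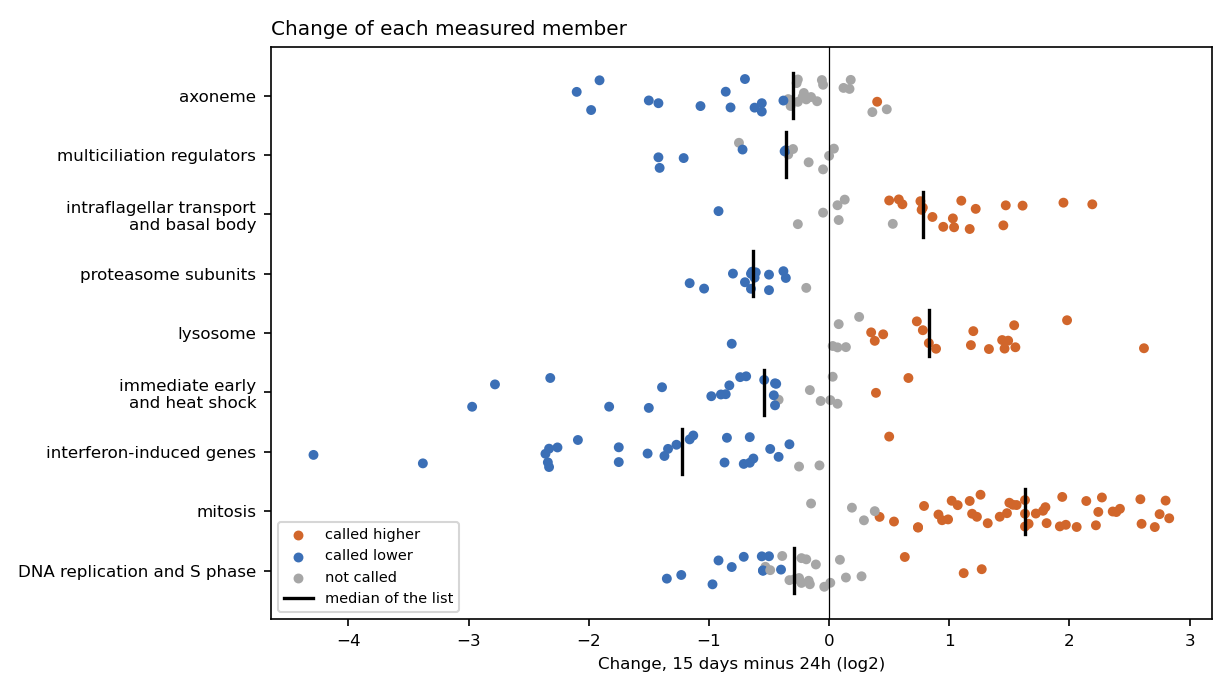
Log2 change from 24h to 15 days of every measured member of selected gene lists, each point being a gene, coloured where its adjusted p was under 0.05, with a bar at the median. The intraflagellar transport members lie mostly to the right of 0, with a median of 0.78, and the motile axoneme members mostly to the left, with a median of -0.30.

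Many genes of extracellular matrix were higher at 15 days. Some of the markers of fibroblasts and smooth muscle, described after them, were higher too, and the part of such cells in these changes was not tested. Fibrillar collagens and their processing enzymes had 16 of 22 members higher and 0 lower, with a median of 1.35. COL5A2, which nucleates collagen fibrils, read 4.04 and 4.10 at 24h and 8.44 and 8.40 at 15 days, a rise of 4.35 ± 0.11 (adjusted p = 1.5e-08), whereas its partner COL5A1 was not called at 0.31 ± 0.19. LOX, the enzyme that cross-links collagen and elastin, rose by 5.45 ± 0.20 and COL14A1 by 4.85 ± 0.25. Of 10 basement membrane genes 6 rose and 1 fell (median 0.86). NID2, a linker of laminin and collagen IV, read 3.38 and 3.91 and then 7.60 and 7.43, a rise of 3.87 ± 0.17 (adjusted p = 2.4e-07). LAMA4, a mesenchymal and vascular laminin chain, rose by 3.63 ± 0.25, LAMB2 by 1.81 ± 0.11, COL15A1 by 1.32 ± 0.16, LAMC1 by 0.90 ± 0.11 and COL4A2 by 0.81 ± 0.14. LAMB3, a chain of an epithelial laminin, fell by 0.70 ± 0.18, a call lost without either 15-day array or replicate 2 of 24h, at changes of -0.41 to -0.99. LAMB1 (0.43 ± 0.17), LAMA2 (-0.06 ± 0.14) and COL4A6 (0.19 ± 0.19) were not called.

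Of 23 proteoglycan genes 10 rose and 2 fell (median 0.12). LUM, lumican, read 3.82 and 3.84 at 24h and 8.24 and 8.16 at 15 days, a rise of 4.37 ± 0.18 (adjusted p = 1.5e-07), and had been at 6.51 at 7 days. FMOD rose by 5.39 ± 0.11, PRELP by 2.64 ± 0.15 and OMD by 1.61 ± 0.28, which are small leucine-rich proteoglycans of connective tissue. SDC4, a cell surface heparan sulphate proteoglycan, was not called at -0.06 ± 0.11. Elastic fibre and adhesive matrix genes had 14 of 22 higher and 0 lower, with a median of 1.02. FBN1, the microfibril protein fibrillin 1, read 3.69 and 3.89 and then 8.57 and 8.57, a rise of 4.78 ± 0.16 (adjusted p = 4.8e-08). MFAP5 rose by 4.3 ± 0.17, LTBP2 by 4.2 ± 0.15 and FN1 by 4.0 ± 0.20.

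Integrins had 9 of 16 higher and 1 lower, with a median of 0.82, or 0.44 over every probe set. ITGB3, the beta chain of the vitronectin receptor, read 5.35 and 5.55 at 24h and 9.16 and 9.18 at 15 days, a rise of 3.72 ± 0.12 (adjusted p = 4.8e-08). Its partner ITGAV read 7.58 and 8.30 and then 10.70 and 10.59, a rise of 2.70 ± 0.20 (adjusted p = 6.2e-06). ITGA8 rose by 3.31 ± 0.18 and ITGA11, a collagen receptor of fibroblasts, by 2.87 ± 0.18. The integrin chains of the hemidesmosome are the uncalled ITGA6 and ITGB4 given above. Matrix proteases and their inhibitors had 13 of 27 higher and 4 lower (median 0.34, or 0.69 without replicate 2 of 24h). MMP2, gelatinase A, read 5.08 and 5.14 and then 8.49 and 8.67, a rise of 3.47 ± 0.12 (adjusted p = 6.5e-08). TIMP3, a metalloprotease inhibitor, rose by 2.99 ± 0.13 and HTRA1, a secreted serine protease, by 2.57 ± 0.12. MMP14 was not called at -0.24 ± 0.12 in the probe set used, while another probe set of the gene gave 2.08, so the gene has no settled value.

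Few transcription factors of mesenchyme were called. Of 24 members 4 rose and 2 fell, with a median of -0.01, and the 25% called was below the 37.4% of all genes. Some uncalled members were dim. OSR2, HOXA10, TBX5 and TBX18, chosen after their values were seen, had 24h means of 2.88 to 3.03. The dimmest 25% of genes lie under 3.62. PRRX1, a homeobox factor of mesenchyme, read 3.01 and 3.11 at 24h and 6.16 and 5.89 at 15 days, a rise of 2.97 ± 0.15 (adjusted p = 4.3e-07). Most of that step came after 7 days, when it stood at 3.77, and the change from 7 to 15 days was 2.26 (adjusted p = 2.4e-05). SNAI2, a repressor of epithelial genes, read 8.10 and 7.79 and then 5.18 and 4.92, a change of -2.89 ± 0.25 (adjusted p = 1.5e-05). RUNX1 fell by 0.62 ± 0.11, HAND2 rose by 0.79 ± 0.19 and WT1 was at 9.01 and 8.85 and then 8.95 and 8.91. The count of risers was 2 without replicate 1 of 24h and 1 without replicate 1 of 15 days, and HAND2 lost its call in both cases, with changes of 0.60 to 0.99 over the 4 arrays left out in turn.

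Fibroblast surface and stromal genes had 10 of 19 members higher and 0 lower (median 0.54), and 9 were not called. MME, the brightest of the 9, was at 0.47 ± 0.23. Others of the 9, chosen after their values were seen, were CD248 (0.01 ± 0.15), PDGFRB (0.11 ± 0.16) and FAP (0.22 ± 0.16). PDGFRB and FAP were dim, with means of 3.35 and 2.68 at 24h and 3.46 and 2.90 at 15 days. THY1, a surface glycoprotein of fibroblasts, read 4.03 and 3.73 at 24h and 8.90 and 8.92 at 15 days, a rise of 5.03 ± 0.15 (adjusted p = 3.2e-08). It was at 9.15 at 7 days and its change from 7 to 15 days was -0.24 (adjusted p = 0.403). CDH11, a cadherin of mesenchyme, read 4.77 and 5.02 and then 9.48 and 9.54, a rise of 4.61 ± 0.12 (adjusted p = 1.5e-08), with 7.35 at 7 days. Smooth muscle and myofibroblast genes had 12 of 21 higher and 1 lower, with a median of 0.77. ACTA2, alpha smooth muscle actin, read 5.86 and 6.10 and then 9.66 and 9.59, a rise of 3.65 ± 0.14 (adjusted p = 1.3e-07). MYLK, the kinase of myosin light chain, rose by 3.23 ± 0.14 and TPM2, a tropomyosin, by 3.45 ± 0.21, whereas CNN3, the calponin also made in non-muscle cells, was not called at -0.18 ± 0.11.

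Targets of YAP and TEAD, factors that respond to cell shape and stretch, had 6 of 9 higher and 0 lower (median 0.80). ANKRD1 read 2.97 and 3.09 at 24h and 5.90 and 5.88 at 15 days, a rise of 2.86 ± 0.50 (adjusted p = 0.00136). Among the others CRIM1 rose by 1.26 ± 0.11, TGFB2 by 1.04 ± 0.17, CTGF by 0.99 ± 0.13, WWC1 by 0.80 ± 0.11 and AMOTL2 by 0.65 ± 0.14. CYR61 (0.27 ± 0.13), DOCK5 (-0.15 ± 0.15) and AMOTL1 (-0.37 ± 0.15) were not called, so that CTGF and CYR61, often used as a pair, had different calls.

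In the TGF-beta and BMP pathway 15 of 36 genes rose and 4 fell (median 0.19), the latter count being 1 without either 15-day array and 2 without replicate 2 of 24h. Extracellular antagonists changed in opposite directions. CHRDL1, which binds BMPs, read 4.29 and 4.10 at 24h and 10.33 and 10.34 at 15 days, a rise of 6.14 ± 0.14 (adjusted p = 1.2e-08). FST, follistatin, which binds activin, read 9.76 and 9.83 and then 6.05 and 6.10, a change of -3.72 ± 0.15 (adjusted p = 1.2e-07). SMAD7, the inhibitory SMAD induced by the pathway, rose by 2.17 ± 0.18 and TGFBI, a matrix target, by 2.71 ± 0.24. TGFBR2, the ligand-binding receptor, was not called at 0.04 ± 0.15. In the Wnt list 14 of 34 rose and 4 fell (median 0.20), with 9 rising without replicate 1 of 15 days. The 4 largest changes were all increases of secreted inhibitors or inhibitor-like proteins. SFRP2 read 5.45 and 5.66 at 24h and 9.55 and 9.45 at 15 days, a rise of 3.95 ± 0.24 (adjusted p = 1.4e-06). DKK3 rose by 3.23 ± 0.19, SFRP5 by 2.46 ± 0.14 and SFRP1 by 2.33 ± 0.17.

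Among ligands and receptors of tyrosine kinases 16 of 45 rose and 11 fell (median 0.11). KITLG, stem cell factor, read 6.01 and 6.39 at 24h and 9.54 and 9.63 at 15 days, a rise of 3.39 ± 0.14 (adjusted p = 1.6e-07). GAS6, the ligand of AXL, read 6.09 and 6.02 and then 9.37 and 9.23, a rise of 3.25 ± 0.11 (adjusted p = 6.0e-08). FGFBP1, a carrier that releases FGFs from matrix, read 10.27 and 10.83 and then 4.32 and 4.36, a change of -6.21 ± 0.21 (adjusted p = 4.8e-08). HBEGF was not called at -0.36 ± 0.16. In the insulin-like growth factor system 4 of 16 rose and 4 fell (median -0.07), or 50% called against 37.4% of all genes. IGFBP7 rose by 3.92 ± 0.18 and IGFBP5 by 1.65 ± 0.14, both binding proteins, PAPPA, a protease that frees IGF, rose by 2.62 ± 0.16, and IRS1, the adaptor of the receptors, fell by 2.04 ± 0.12. IGF1R itself was not called at 0.17 ± 0.12.

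Notch and Hedgehog genes had 4 of 18 higher and 5 lower (median -0.02), but without replicate 1 of 15 days 2 were higher and 1 lower, without replicate 2 of 15 days 2 and 2, and without replicate 2 of 24h 2 were lower. With all arrays 50% of the list was called in either direction, against 37.4% of all genes. SHH, the ligand sonic hedgehog, read 5.35 and 5.41 at 24h and 3.81 and 3.82 at 15 days, a change of -1.57 ± 0.11 (adjusted p = 3.6e-06), while the co-receptor GAS1 rose by 1.70 ± 0.22 and the transducer SMO by 0.93 ± 0.16. The Notch ligand DLL4 fell by 0.52 ± 0.16 (adjusted p = 0.028), a call lost without either 15-day array or replicate 2 of 24h, at changes of -0.38 to -0.67. Receptors and enzymes of steroid, peptide hormone and prostaglandin signalling had 11 of 39 higher and 12 lower (median -0.04). AGTR1, the angiotensin II receptor, read 3.38 and 3.06 and then 8.83 and 8.53, a rise of 5.46 ± 0.18 (adjusted p = 4.8e-08). EDNRB, the endothelin B receptor, read 8.71 and 8.41 and then 5.27 and 4.87, a change of -3.49 ± 0.17 (adjusted p = 3.7e-07). PRLR and CRABP2, given above, also belong to this list, and PGRMC1, a membrane progesterone binding component, was not called at -0.24 ± 0.12.

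The interferon response was lower at 15 days in 25 of 28 genes and higher in 1, with a median of -1.22. OASL, a sensor of double-stranded RNA, read 8.63 and 7.75 at 24h and 3.94 and 3.86 at 15 days, a change of -4.29 ± 0.24 (adjusted p = 8.5e-07). RSAD2 read 9.70 and 9.31 and then 6.24 and 6.02, a change of -3.38 ± 0.20 (adjusted p = 1.1e-06). IFIT3 fell by 2.36 ± 0.14 and DHX58, a regulator of RNA sensing, by 2.34 ± 0.14. These genes were higher in replicate 1 of 24h than in replicate 2, and the list's median was -0.89 without replicate 1 and -1.53 without replicate 2 of 24h. The 15-day cultures were not the low point, since 13 of the 28 were higher at 15 than at 7 days and 0 lower, against 6.58% and 6.72% of all genes. RSAD2 was at 4.68 at 7 days and rose by 1.45 from 7 to 15 days (adjusted p = 0.00106), whereas OASL was at 3.94 at 7 days and its change to 15 days was -0.04 (adjusted p = 0.952).

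Antigen presentation genes had 5 of 29 higher and 7 lower (median -0.09), with 3 higher without either 15-day array or replicate 2 of 24h and 4 lower without replicate 2 of 15 days. The 41.4% of this list called in either direction was near the 37.4% of all genes. CD274, the checkpoint ligand PD-L1, read 7.79 and 7.67 at 24h and 3.26 and 3.21 at 15 days, a change of -4.49 ± 0.11 (adjusted p = 1.5e-08). PDIA3 and TAPBP, of the peptide loading complex, rose by 0.90 ± 0.10 and 0.70 ± 0.12, and B2M, the light chain of class I molecules, was not called at -0.09 ± 0.10. SLA-DRA, a class II chain, fell by 0.95 ± 0.29 with 24h arrays at 6.74 and 7.85, and kept its call only without replicate 1 of 24h among the arrays left out in turn, at changes of -0.40 to -1.5. Cytokines, chemokines and targets of NF-kB had 16 of 48 higher and 13 lower (median 0.02), or 7 and 8 lower without replicate 1 and replicate 2 of 15 days. VCAM1, a leukocyte adhesion molecule, read 8.40 and 7.17 and then 11.20 and 11.10, a rise of 3.36 ± 0.31 (adjusted p = 2.2e-05). ICAM1 rose by 2.07 ± 0.13, IL18 by 2.10 ± 0.18 and IL33, an alarmin held in the nucleus, by 2.67 ± 0.22. IL33 was at 4.76 at 7 days, so its rise came between 7 and 15 days (3.40, adjusted p = 2.1e-05). CCL2 read 11.42 and 11.49 at 24h and 11.40 and 11.41 at 15 days and was not called. Complement and coagulation genes had 9 of 29 higher and 4 lower (median -0.04), or 7 lower without replicate 1 of 24h. Of these 44.8% were called in either direction with all arrays, against 37.4% of all genes. C1S and C1R, the proteases of the classical pathway, rose by 2.68 ± 0.17 and 2.22 ± 0.21, and C4A, their substrate, fell by 2.09 ± 0.20.

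Genes of mitosis were higher at 15 days in 45 of 49 cases and lower in 0, with a median of 1.63. KIF23, a kinesin of the cleavage furrow, read 5.05 and 6.28 at 24h and 8.51 and 8.48 at 15 days, a rise of 2.83 ± 0.30 (adjusted p = 6.0e-05). CENPF, a kinetochore protein, read 4.78 and 5.72 and then 8.03 and 8.08, a rise of 2.80 ± 0.34 (adjusted p = 1.4e-04). HMMR and DLGAP5, of the spindle, rose by 2.75 ± 0.31 and 2.71 ± 0.22, and BUB3 was not called at -0.15 ± 0.11. Replicate 2 of 24h was above replicate 1 for these 4 rising genes, and both were below the 15-day arrays. Genes of DNA replication did not share this pattern, with 3 of 31 higher and 11 lower (median -0.29), or 6 lower without replicate 1 of 15 days. MCM4, of the replicative helicase, read 8.57 and 8.33 and then 7.14 and 7.06, a change of -1.35 ± 0.13 (adjusted p = 2.5e-05). PRIM1, which primes new strands, fell by 1.23 ± 0.17, while CCNE2, a cyclin of entry into S phase, rose by 1.27 ± 0.20 and E2F8 by 1.12 ± 0.17. From 15 to 30 days 46 of the 49 mitotic genes and 20 of the 31 replication genes were lower, where 10.1% of all genes were called and 6.11% were lower. The list of p53 targets and cell cycle inhibitors, which also held D cyclins, CDK4, CDK6 and IL6, had 12 of 24 higher and 5 lower (median 0.44). Of these added members, named after their values were seen, CCND2 and CCND3 rose by 0.47 ± 0.12 and 0.65 ± 0.12. CDK6 and IL6 fell by 0.61 ± 0.10 and 1.23 ± 0.15. PLK2 (0.03 ± 0.12) and CDKN1A, also chosen after its values were seen (0.40 ± 0.16), were not called. CDKN2B, an inhibitor of CDK4 and CDK6, read 4.54 and 4.61 at 24h and 6.93 and 7.02 at 15 days, a rise of 2.40 ± 0.10 (adjusted p = 2.0e-07). TP53INP1 rose by 3.04 ± 0.21 and RRM2B, a ribonucleotide reductase subunit, by 2.45 ± 0.17, while SESN2, a stress-induced regulator of mTORC1, fell by 2.06 ± 0.13.

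Immediate early and heat shock genes were lower in 17 of 25 cases and higher in 2, with a median of -0.54. FOSL1, an AP-1 factor, read 9.81 and 10.01 at 24h and 6.87 and 7.01 at 15 days, a change of -2.97 ± 0.17 (adjusted p = 8.5e-07). HSPB8, a small heat shock protein, fell by 2.78 ± 0.20, and SPRY2 and DUSP5, feedback inhibitors of ERK signalling, fell too, with changes of -2.32 ± 0.11 and -1.83 ± 0.13. HSPA8, the constitutive chaperone, was not called at -0.16 ± 0.10, and the other heat shock members measured all fell. The immediate early and feedback members were divided, as genes chosen after their values were seen show. SPRED1 rose by 0.66 ± 0.12 and DUSP4 by 0.39 ± 0.11. EGR1 (0.01 ± 0.20), IER3 (0.03 ± 0.11), DUSP1 (-0.07 ± 0.11), SPRY4 (0.07 ± 0.12) and ATF3 (-0.42 ± 0.15) were not called. Redox and detoxification genes had 10 of 32 higher and 12 lower (median -0.16). GPX2, a glutathione peroxidase of epithelia, read 8.06 and 8.65 and then 3.87 and 3.64, a change of -4.6 ± 0.18 (adjusted p = 1.3e-07). GSTM3 fell by 3.68 ± 0.11 and GSTA1 by 2.15 ± 0.20, both glutathione transferases of families with close copies, while CAT, catalase, rose by 2.15 ± 0.15. Genes of the unfolded protein response and ATF4 had 10 of 28 higher and 8 lower (median 0.02). CHAC1, which degrades glutathione, read 7.89 and 8.31 at 24h and 5.16 and 5.38 at 15 days, a change of -2.83 ± 0.15 (adjusted p = 6.8e-07). ALDH1L2, a mitochondrial folate enzyme, rose by 3.11 ± 0.14, VLDLR, a lipoprotein receptor, by 3.91 ± 0.16, and the chaperone HSPA5 was not called at 0.05 ± 0.10.

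Protein breakdown genes divided by compartment. Of 14 proteasome subunits 13 fell and 0 rose, with a median of -0.63. PSMD13, of the regulatory lid, read 8.41 and 8.43 at 24h and 7.39 and 7.13 at 15 days, a change of -1.16 ± 0.13 (adjusted p = 6.9e-05). The ATPase subunits PSMC1, PSMC5 and PSMC3 fell by 1.04 ± 0.11, 0.80 ± 0.11 and 0.70 ± 0.11, and PSMA4 was not called at -0.19 ± 0.11. None of the 14 was called from 7 to 15 days or from 15 to 30 days. Lysosomal genes rose in 17 of 23 cases and fell in 1, with a median of 0.83. MAN2B1, an alpha-mannosidase, read 6.42 and 6.65 and then 9.12 and 9.19, a rise of 2.62 ± 0.12 (adjusted p = 3.0e-07). CTSH, a cathepsin, rose by 1.98 ± 0.17, GUSB, beta-glucuronidase, by 1.55 ± 0.11 and SCARB2, a membrane protein that carries glucocerebrosidase, by 1.54 ± 0.14, although another probe set of SCARB2 gave -0.76. The exception, NPC1, which exports cholesterol, fell by 0.81 ± 0.12. Ribosomal protein genes were lower in 11 of 40 cases and higher in 1 (median -0.22), with 5 lower without replicate 1 of 15 days or replicate 2 of 24h and 3 without replicate 2 of 15 days. RPSA fell by 0.84 ± 0.19 and RPL10 rose by 2.15 ± 0.27, and as these genes have many processed copies their probes may not be specific.

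Cholesterol synthesis and handling genes were lower in 10 of 22 cases and higher in 3 (median -0.31), with 6 lower without replicate 1 of 24h or replicate 2 of 15 days. ACAT2, which makes acetoacetyl-CoA, read 9.92 and 9.92 at 24h and 8.77 and 8.76 at 15 days, a change of -1.15 ± 0.10 (adjusted p = 1.8e-05). TM7SF2, a sterol reductase, rose by 1.84 ± 0.11 and ABCA1, which exports cholesterol, by 2.47 ± 0.17, while HMGCS1 was not called at -0.14 ± 0.12. Against the neighbouring times, 15 of 22 were lower at 15 than at 7 days, where 6.72% of all genes were, and 17 were higher at 30 than at 15 days, where 3.94% of all genes were. HMGCS1 was at 10.66 at 7 days, 9.45 and 9.44 in the 15-day arrays and 10.53 at 30 days. Lipid metabolism genes had 18 of 46 higher and 9 lower (median 0.26, or 0.11 without replicate 2 of 24h). LIPG, endothelial lipase, read 4.85 and 5.22 at 24h and 9.31 and 9.36 at 15 days, a rise of 4.3 ± 0.13 (adjusted p = 3.2e-08). ACADL and ACAA2, enzymes of mitochondrial beta-oxidation, rose by 3.71 ± 0.19 and 2.64 ± 0.11, and FADS3, of the fatty acid desaturase family, by 3.36 ± 0.11.

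Hypoxia and glycolysis genes had 8 of 26 higher and 6 lower (median 0.13). EPAS1, the hypoxia-inducible factor 2 alpha, read 5.33 and 5.57 at 24h and 8.21 and 8.15 at 15 days, a rise of 2.73 ± 0.13 (adjusted p = 3.2e-07). PFKFB4, a regulator of glycolysis, rose by 1.89 ± 0.13, ADM, adrenomedullin, fell by 2.44 ± 0.15 and PKM was not called at -0.17 ± 0.11. PDK3, an inhibitor of pyruvate dehydrogenase, rose by 2.02 ± 0.13 in the probe set used, but another gave -0.10. Of 28 respiratory chain genes 9 rose and 0 fell, with a median of 0.17. The largest rises were NDUFA2 (1.28) and NDUFB6 (0.81) of complex I and COX6C (1.09) and COX7C (0.76) of cytochrome c oxidase, and ATP5B was not called at -0.13 ± 0.12. Another probe set of COX7C gave 0.16 and was not called.

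**Figure D4:**
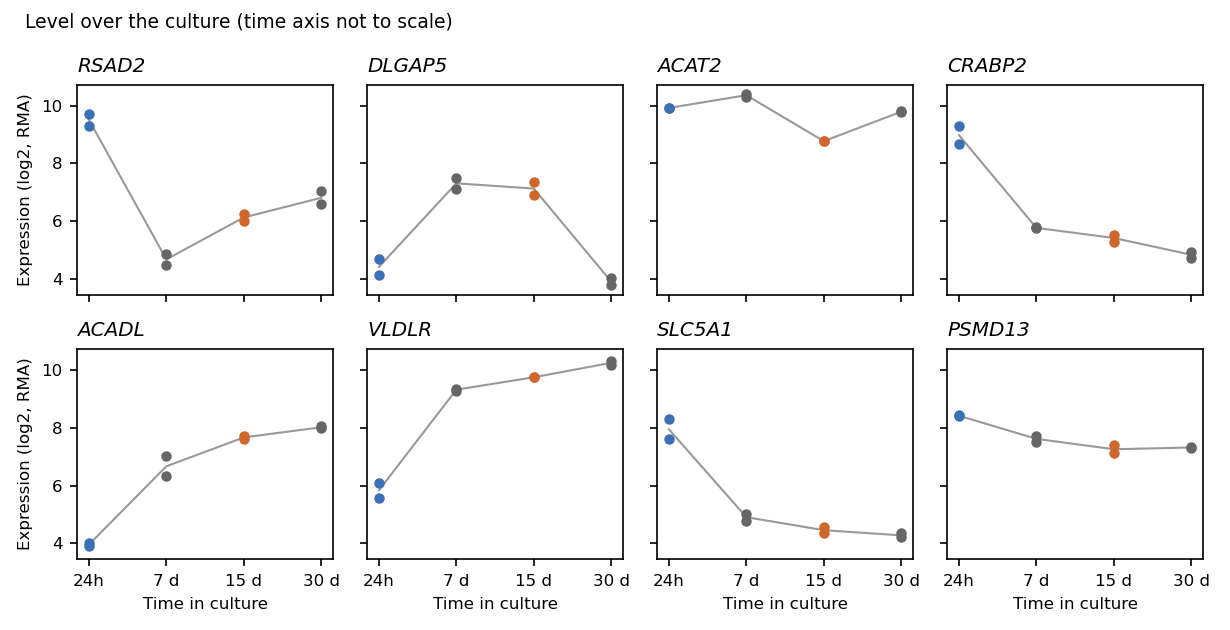
Log2 expression of 8 of the genes named in the text at 24h, 7, 15 and 30 days, each point being an array and each line joining the means. RSAD2 has its lowest mean at 7 days (4.68), DLGAP5 stands at 7.31 at 7 days and 3.91 at 30 days, and ACAT2 has its lowest values at 15 days (8.77 and 8.76).

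Markers of other cell types were read beside these results. Of 25 leukocyte genes 5 fell and 0 rose (median -0.18). The 20% lower was near the 18.1% of all genes, and the 20% called in all was below the 37.4% of all genes. LYZ, 1 of the 5, changed sign in another probe set, as given below. The mean level of the leukocyte list was 4.17 and 4.58 in the 24h arrays and 4.02 and 4.05 in the 15-day arrays. The count of falls was 0 without replicate 1 of 15 days, 2 without replicate 2 of 15 days or of 24h, and 9 without replicate 1 of 24h. SPI1, the myeloid master factor, read 4.95 and 5.99 at 24h and 4.27 and 4.4 at 15 days, a change of -1.14 ± 0.28 (adjusted p = 0.009). CSF1R, the receptor of macrophage growth factor, fell by 0.82 ± 0.22 and TYROBP, an adaptor of myeloid receptors, by 0.69 ± 0.22, and leaving out arrays in turn gave -0.61 to -1.66, -0.46 to -1.18 and -0.27 to -1.11 for these 3 genes, with calls lost in each without replicate 1 of 15 days. Of 13 endothelial genes 2 fell and 1 rose (median -0.05), or 23.1% called against 37.4% of all genes. The endothelial list means were 4.19 and 4.43 at 24h and 4.16 and 4.18 at 15 days. CD34 fell by 1.98 ± 0.16, KDR by 1.31 ± 0.25, with another probe set at 0.19, and FLT4 rose by 1.21 ± 0.11. Of 8 mesothelial genes 2 rose (median 0.03), or 25% called against 37.4% of all genes. UPK1B rose by 1.44 ± 0.14 from a 24h mean of 9.54. PDPN, also a marker of fibroblasts, rose by 1.12 ± 0.17 from 10.44. WT1 was not called, with means of 8.93 at both times, nor were BNC1 (0.37 ± 0.14), HAS1 (0.03 ± 0.18) and LRRN4 (-0.16 ± 0.21). CALB2 read 2.90 and 2.84 and then 2.80 and 2.84 and PRG4 2.83 and 2.85 and then 2.89 and 2.84. Both were among the dimmest 25% of genes, which lie under 3.62. No red blood cell gene of 6 (median 0.00) and no adipocyte, Schwann cell or neuronal gene of 11 (median -0.10) was called by limma in either direction. Their 24h means were low, at 2.99 to 3.98 and 2.88 to 4.67, against a median level of 5.23 over all genes. The absence of calls therefore says little about such cells. HBB, a red blood cell gene, changed by -0.35 ± 0.14, or by -0.47 without replicate 1 of 24h. The part of leukocyte or endothelial cells in the other changes was not tested.

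The 2 arrays at 24h differed from each other more than those at 15 days. They lay more than 1 log2 unit apart for 76 genes, of which 44 were called, against 2 genes at 15 days, and replicate 1 was the higher in 14 of the 76. The genes named next have the 10 widest gaps. C1QB, a chain of complement C1q made by macrophages, read 5.26 and 7.74 at 24h and 5.25 and 5.67 at 15 days, and was not called at -1.04 ± 0.59, the change being -2.28 without replicate 1 and 0.20 without replicate 2 of 24h. FCER1G, an Fc receptor subunit, read 4.56 and 6.81 and then 4.38 and 4.4, and was not called at -1.30 ± 0.55. CCL8, a monocyte chemokine, read 5.44 and 7.67 and then 5.32 and 5.19. In these genes, and in C1QC, P2RY12, SRGN and MMP9, replicate 2 was the higher at 24h. P2RY12, a receptor for ADP, fell by 1.77 ± 0.58 (adjusted p = 0.0367), with changes of -3.01 and -0.53 without replicate 1 and replicate 2 of 24h, both called, and a call lost without either 15-day array. The opposite gap was seen in AMCF-II, a porcine neutrophil chemokine (7.22 and 4.34), IGSF5, a junctional protein (6.07 and 4.13), and RPL23A (10.90 and 9.17). MMP9, gelatinase B, was not called at 0.34 ± 0.54, and its change was -0.75 without replicate 1 and 1.43 without replicate 2 of 24h.

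**Figure D5:**
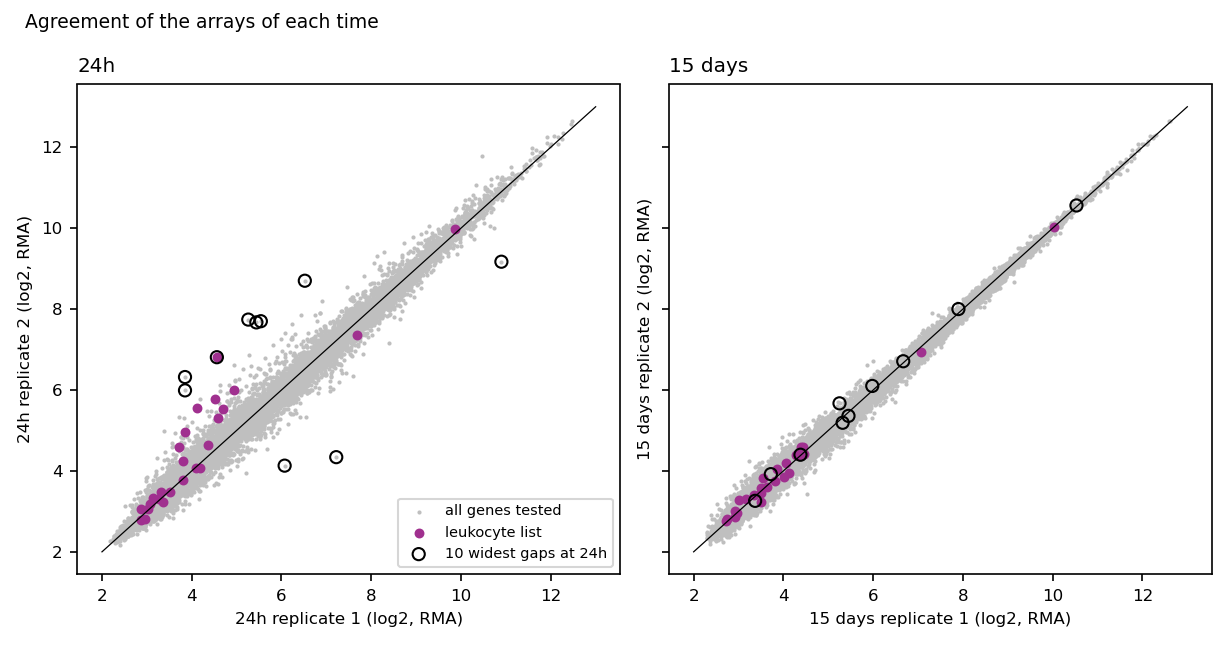
Log2 expression of each gene in replicate 2 against replicate 1, at 24h (left) and 15 days (right), with the leukocyte list in colour and rings around the 10 genes with the widest gaps at 24h. The ringed genes lie off the diagonal at 24h and near it at 15 days. Gaps over 1 log2 unit are seen for 76 genes at 24h and 2 at 15 days.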

How the data were processed

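RNA of porcine oviductal epithelial cell cultures was amplified, biotin-labelled and hybridised to 1-colour Affymetrix arrays, per the labels' protocols. The authors deposited log2 intensities summarised per probe set by RMA, per the submitters' processing notes, with no version or annotation build given in the sources used here. RMA as a method subtracts background and normalizes by quantiles. Because RMA makes the arrays' distributions nearly equal, a common shift of most genes would not be seen. Detection calls were not used here, and the number of arrays limits the precision.

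The platform annotation gave 1 usable gene symbol to 11968 of 27558 probe sets. Those with several symbols (373), with a symbol and identifier naming different genes (6) or unnamed here (15211) were left out of the gene counts. Identifiers of 11190 probe sets matched RefSeq genes, and 1 symbol was updated. Where a gene had several probe sets, the one with the highest mean stood for it, which gave 10901 genes, 1215 of them under placeholder symbols. No pair of arrays held identical values (0 pairs). Linear models with 1 mean per time were fitted to all 8 arrays with lmFit and eBayes of limma 3.58.1, run in R 4.3.3, leaving 4 residual degrees of freedom. Calls used an adjusted p under 0.05, with the Benjamini-Hochberg adjustment made over the 10901 genes, separately for 15 days against 24h, 15 against 7 days and 30 against 15 days. Errors after ± are SEs.

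The groups compared, the 50 gene lists and the rule for naming genes were chosen with earlier results of these data known. The rule took the 25 largest called increases and decreases, up to 4 called members of each list with the largest change and its uncalled member with the highest mean, all members of lists of up to 12 measured genes, and the 10 genes with the widest gap between the arrays of either time. Lists are described by counts and medians, with no test of a list. Alternatives were centring arrays on the median, normalizing by quantiles once more, dropping the dimmest 25% of genes, other choices of probe set, a trended robust variance, a fit of the 4 arrays alone, the replicate number as a block, leaving out each array and stricter thresholds. Promoter motifs and gene sequences were not analysed here.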

Additional observations from a re-analysis of the deposited data

Results flagged for a closer look

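Probe sets without a single gene name carried differences that the comparison of genes does not use. Of 15590 such probe sets, tested in 1 fit with the named ones, 4110 were called between 24h and 15 days (26.4%), 1863 higher and 2247 lower, and 14 of them changed by at least 16-fold. Among the 11968 named probe sets 4073 were called (34%). The unnamed ones had a median level of 4.51 on the log2 scale, against 5.18 for the named ones, and which genes they measure was not tested.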

How the results depend on the processing

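The small number of arrays per time sets the limits of these results. Requiring a 2-fold difference beside the adjusted p left 1396 genes called, 871 higher and 525 lower, and an adjusted p under 0.01 left 2939 called, 1626 higher and 1313 lower. Leaving out each of the 4 arrays in turn gave 2913 to 3574 called genes, 1563 to 1866 higher and 1321 to 1708 lower, with the fewest called in all without replicate 1 of 15 days. The other settings gave 3992 to 4450 calls, the highest where every named probe set counted on its own. Median centring changed the split to 2150 higher and 1842 lower. Between 70.8% and 99.7% of the genes called here were also called under each setting other than the stricter thresholds. Fitting the replicate number as a block gave 4196 called genes, 2137 higher and 2059 lower, of which 4026 were shared. Same-numbered arrays of 24h and 15 days deviated together at r = 0.076 over genes, and no label states what a shared number means.

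Of 295 genes named by the rule, 277 to 284 kept their direction and side of the threshold when an array was left out. Other probe sets of a gene reversed the sign of ATP5B (0.57), CD79A (-0.58), KDR (0.19), LYZ (0.71), MMP14 (2.08), PDK3 (-0.10), RPL23A (-0.49) and SCARB2 (-0.76). Averaging the probe sets reversed LYZ (0.10) and MMP14 (0.53). MMP9 was at -0.75 without replicate 1 of 24h and 1.43 without replicate 2. Ribosomal protein genes had 19 probe sets lower when every probe set was counted. Leaving out the dimmest genes moved the median change of the protease list to 0.80, of integrins to 1.10, of proteoglycans to 0.60, of fibroblast genes to 0.93, of smooth muscle genes to 1.38 and of leukocyte genes to -0.62. The same setting moved elastic fibre genes to 1.36, squamous genes to -1.14, simple keratins to 0.48 and multiciliation genes to -0.54. It also moved mesenchymal factors to 0.18, hormone genes to -0.24, mesothelial genes to 0.75 and red blood cell genes to 0.15. Averaging probe sets gave 0.53 for the protease list. Counting every probe set moved fibroblast genes to 0.71 and smooth muscle genes to 1.38. The causes were not tested. The dimmest 25% of genes, under 3.62, lie near the floor of the arrays, where a decrease is compressed.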

Other observations

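Members of the lists that the naming rule passed over add to the account, and all genes in this paragraph were chosen after their values were seen. PTGS2, the inducible cyclooxygenase that starts prostaglandin synthesis, read 7.65 and 7.99 at 24h and 5.44 and 5.20 at 15 days, a change of -2.50 ± 0.16 (adjusted p = 1.9e-06). It was at 8.22 at 7 days and 8.08 at 30 days, so the 15-day arrays held its lowest values. PTGES, a prostaglandin E synthase, rose by 0.98 ± 0.12. CXCL8, a neutrophil chemokine, read 11.10 and 11.05 and then 9.11 and 9.03, a change of -2.01 ± 0.13 (adjusted p = 2.7e-06), and IL6 fell by 1.23 ± 0.15. CFTR, the chloride channel that drives oviductal fluid, read 5.89 and 6.18 at 24h and 8.62 and 8.61 at 15 days, a rise of 2.58 ± 0.17 (adjusted p = 2.4e-06). OCLN, occludin, fell by 1.53 ± 0.11, whereas TJP1, its cytoplasmic partner, was not called at -0.38 ± 0.13. PGR, the progesterone receptor, fell by 0.98 ± 0.15, and ESR1, the oestrogen receptor alpha, was not called, at 8.59 and 8.38 and then 8.13 and 8.11. FOXJ1, the main factor of motile cilia, was not called at -0.75 ± 0.30, with 24h arrays at 4.83 and 5.68 and 15-day arrays at 4.34 and 4.66.

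Members of the ATF4 and unfolded protein list, chosen in the same way, were called in both directions. ATF4, the transcription factor of that response, read 10.13 and 10.31 and then 8.96 and 8.80, a change of -1.34 ± 0.12 (adjusted p = 1.5e-05). ASNS, asparagine synthetase, fell by 1.52 ± 0.13 and TRIB3, a pseudokinase induced by ATF4, by 1.42 ± 0.16. PHGDH, the first enzyme of serine synthesis, rose by 1.21 ± 0.12, whereas PSAT1 (-0.37 ± 0.16) and PSPH (-0.16 ± 0.12) of the same pathway were not called. ALDH1L2, which the rule named and which is given above, rose by 3.11 ± 0.14. NQO1 and TXNRD1, targets of the redox factor NRF2, fell by 1.53 ± 0.13 and 1.10 ± 0.13.

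Among the genes named by rank, SGCE, a sarcoglycan, rose by 4.87 ± 0.14 and ENPP6, a choline-releasing phosphodiesterase, by 5.09 ± 0.21. ENPP6 was at 4.25 at 7 days, and its change from 7 to 15 days was 4.65 (adjusted p = 4.9e-06). CDA, cytidine deaminase, fell by 5.74 ± 0.16 and stood at 8.73 at 7 days, and ANKRD22 fell by 5.32 ± 0.21. The widest gaps between the 15-day arrays were seen in SOX3 (3.23 and 4.24), KCNE5 (3.68 and 4.58), ALOX5 (4.12 and 4.92), MIR149 (6.49 and 5.70), RLN2 (4.47 and 3.69), CREBRF (5.86 and 6.61), FIGN (5.33 and 4.59), PCDH12 (3.36 and 4.09), APOA1BP (3.45 and 4.18) and PADI1 (4.69 and 3.97), of which only FIGN was called (1.14).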
